A study of Rattus norvegicus with 14 samples.

Results

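The genes described here are 34 markers of cortical layers and of corticospinal neurons, the cells of the motor cortex that send axons to the spinal cord. They were chosen by name: 15 were listed as upper layer markers and 19 as deep layer markers, out of 22093 genes with a single symbol on the array. All 34 were found, each represented by its probe set with the highest mean over the 14 arrays (Bcl11b, Pcp4 and Sema3e had more than 1). The list places Fezf2 among the upper layer markers and Lhx2 among the deep ones. Fezf2 is known as a layer V gene, and its values are given under the list's own grouping and again with it moved.

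The samples are motor cortex from male rats whose spinal cord had been injured (SCI). Of the 14 arrays, 7 come from rats infused with MSC and 7 from rats infused with vehicle, in both cases into the femoral vein a day after the injury, with the cortex removed on day 3 after the infusion. MSC most often stands for mesenchymal stem or stromal cells; their origin is not stated in the labels used here. Every rat in both groups received cyclosporine A, an immunosuppressant, daily, and all had the injury, so the labelled difference between the groups is the infusion. Whether each array is a rat of its own is not stated, and p-values therefore reflect only how these samples vary, which may be technical. One label of MSC replicate 7, its description, speaks of vehicle, while its title, source name and treatment say MSC; it was kept as MSC.

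The cerebral cortex is built in layers whose excitatory neurons differ in their targets: upper layer neurons connect cortical areas with each other and with the opposite hemisphere, while deep layer neurons project out of the cortex. Corticospinal neurons lie in layer V. In mice their identity depends on the transcription factors Fezf2 and Bcl11b (also called Ctip2), layer VI neurons that project to the thalamus carry Tbr1, Foxp2 and Tle4, and Cux1, Cux2 and Rorb mark layers II to IV. A piece of cortex cut deeper or shallower holds more or less of each, and in bulk tissue fewer cells of a type and less RNA per cell cannot be told apart.

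The tissue carried the RNA of cortical excitatory neurons. The mean of 8 such markers (Slc17a7, Camk2a, Neurod6 and others) was 12.50 to 12.96 in the MSC group and 12.30 to 12.78 in the vehicle group on the log2 scale, far above the array medians of 5.77 to 5.903, used here to mark dim signal. Of the layer markers, Ntsr1 (a layer VI receptor gene) and Oprk1 (the kappa opioid receptor) averaged below the lowest array median, and all others lay above it. A few arrays stood apart in markers of neighbouring tissue. The choroid plexus list averaged 9.20 in MSC replicate 4 and 9.19 in vehicle replicate 2, and at most 6.35 elsewhere. The meningeal list stood at 8.91 in MSC replicate 2 and 8.71 in vehicle replicate 2, against 7.35 to 7.98 elsewhere, and the striatal list reached 7.73 in MSC replicate 6 against 6.95 to 7.25 elsewhere. The part of these tissues in the layer markers was not tested; values without these 4 arrays stand beside the results that rest on them.

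Promoter sequences of the regulators that the results turn on are shown first, for Fezf2 and Rorb, on which slopes of the other markers are described, for Etv1, the marker with the smallest p on Fezf2, and for Cux2, an upper layer regulator. They are the 250 bases before each gene's start, from RefSeq's annotation of the rat assembly GRCr8, which held 25 of the 34 genes. Each is read 5′ to 3′ on the gene's own strand. Capitals mark the motifs named afterwards. The windows lie at chr15:15203943-15204192 (Fezf2, plus strand), chr6:61317179-61317428 (Etv1, plus strand), chr1:225970974-225971223 (Rorb, minus strand) and chr12:40179032-40179281 (Cux2, plus strand), each directly upstream of the gene's start.
Fezf2: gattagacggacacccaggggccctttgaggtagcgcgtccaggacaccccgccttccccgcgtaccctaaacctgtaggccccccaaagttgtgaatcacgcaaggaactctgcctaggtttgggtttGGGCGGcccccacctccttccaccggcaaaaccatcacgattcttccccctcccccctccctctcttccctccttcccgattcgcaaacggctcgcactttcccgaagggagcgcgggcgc
Etv1: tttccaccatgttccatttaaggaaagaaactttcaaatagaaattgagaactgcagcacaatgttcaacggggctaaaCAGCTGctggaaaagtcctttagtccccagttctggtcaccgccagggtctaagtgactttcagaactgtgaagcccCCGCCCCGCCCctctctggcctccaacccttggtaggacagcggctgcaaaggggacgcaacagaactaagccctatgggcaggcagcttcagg
Rorb: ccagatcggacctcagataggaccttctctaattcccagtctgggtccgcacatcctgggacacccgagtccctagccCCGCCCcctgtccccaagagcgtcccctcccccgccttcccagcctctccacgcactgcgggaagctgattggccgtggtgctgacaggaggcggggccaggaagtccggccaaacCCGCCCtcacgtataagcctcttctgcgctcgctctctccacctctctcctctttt
Cux2: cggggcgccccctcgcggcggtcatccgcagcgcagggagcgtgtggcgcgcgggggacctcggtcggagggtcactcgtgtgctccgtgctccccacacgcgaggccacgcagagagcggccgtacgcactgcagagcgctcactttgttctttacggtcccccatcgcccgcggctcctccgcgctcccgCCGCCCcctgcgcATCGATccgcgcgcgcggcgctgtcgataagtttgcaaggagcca

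In all, 8 motifs were searched on both strands, and a match says only that the letters occur. The first 6 were picked for factors among or near the markers: AGGTCA (the half-site of ROR receptors such as Rorb), ATCGAT (bound by Cut proteins such as Cux1 and Cux2), ATGCAAAT (the POU octamer), GGTGTGA (a T-box half-site), CCGGAAGT (an ETS site, the family of Etv1) and TGTTTAC (a forkhead site). None of these occurred in the windows of Fezf2, Etv1, Rorb and Cux1, which were read first. E-box CAGCTG and GC box GGGCGG were therefore added after the sequences had been seen, and Cux2 was shown because its window holds ATCGAT. In the printed windows the capitals are GC boxes, except for CAGCTG in Etv1 and ATCGAT in Cux2. ATCGAT was found in the window of 1 of 25 markers (4%), Cux2, and in 0.75% of all 33469 windows. AGGTCA was found in 2 of 25 (8%), Rprm and Syt6, and in 14.1% of all windows. GGTGTGA was found in 3 of 25 (12%), Ccn2, Ntsr1 and Syt6, against 3.22% of all windows. The octamer, ETS and forkhead letters were found in 0 of 25, against 1.56%, 3.1% and 3.21% of all windows. CAGCTG was found in 4 of 25 (16%) and in 12% of all windows, and GGGCGG in 16 of 25 (64%) and in 30.5% of all windows; since both were chosen from the sequences, nothing is drawn from these shares.

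None of the 34 layer markers passed the test between the MSC and vehicle groups. The fit with limma over all 68842 probe sets, with Benjamini-Hochberg adjustment, called 0 markers and 0 probe sets (0% of all), and every marker had an adjusted p of 0.9999. At an unadjusted p below 0.05 stood 1 of 34 markers, Cartpt, against 3.41% of all probe sets (2345), 1% higher and 2.41% lower in the MSC group, and against 2.77% of all genes. No marker had groups of arrays that failed to overlap, against 0.032% of all probe sets. Of the 34, 15 were above and 19 below 0 (MSC minus vehicle), with a median difference of -0.0078 on the log2 scale; over all 22093 genes 47.6% were higher and the median was -0.0038.

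The spread between arrays set how small a difference could be seen. The median pooled SD of the markers was 0.26 on the log2 scale, against 0.13 over all genes. For 29 of the 34 markers (85.3%), the 95% interval of the difference lay within 1.5-fold either way, against 97.7% of all genes and 95.6% of all probe sets. The 5 exceptions were Lamp5, Calb1 and Rorb of the upper layers and Bcl11b and Rbp4 of the deep layers, whose arrays ranged over 2.54-fold (Bcl11b) to 4.30-fold (Rorb).

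**Figure D1:**
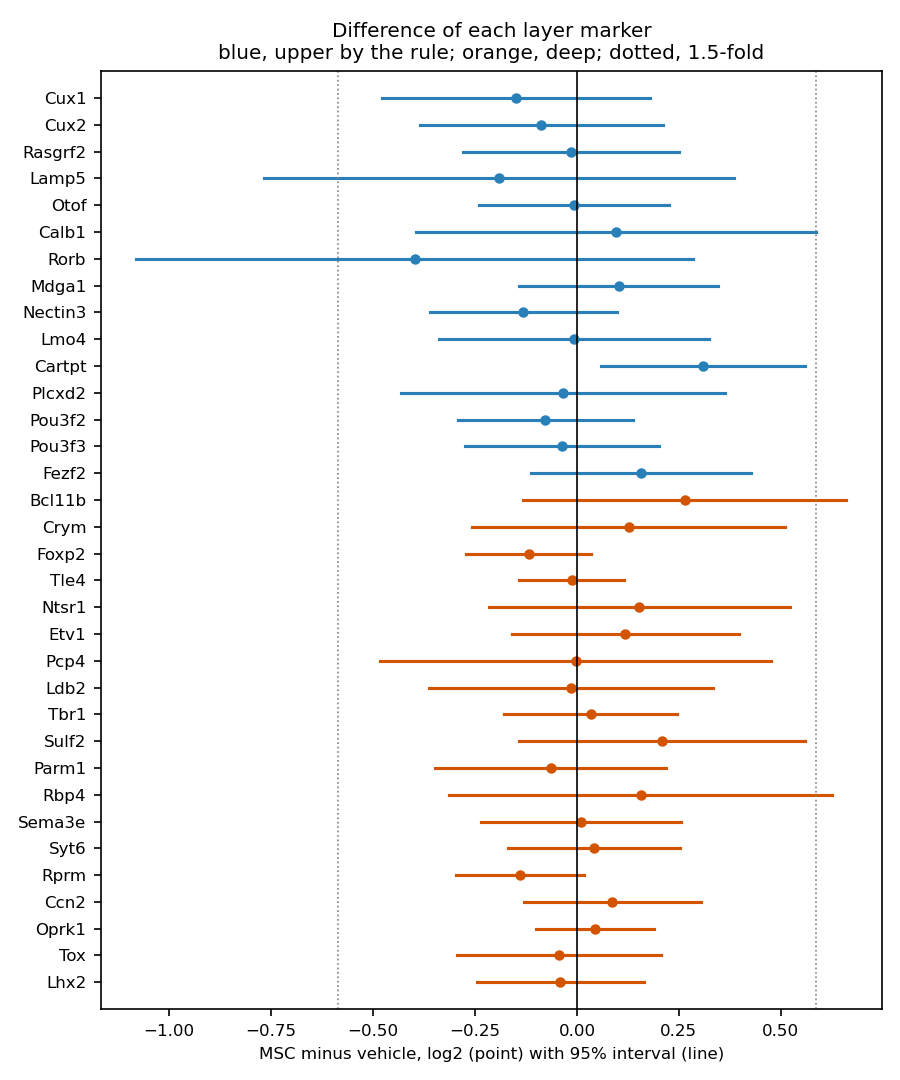
Difference of each layer marker, MSC minus vehicle on the log2 scale (point), with its 95% interval (line); upper layer markers in blue and deep layer markers in orange, the dotted lines at 1.5-fold. All intervals but that of Cartpt cross 0, and Rorb has the widest.

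Among the corticospinal regulators, Fezf2 specifies subcortical projection neurons. Its log2 level was lowest 11.24, median 11.27 and highest 11.64 in the MSC group, against 10.79, 11.25 and 11.75 in the vehicle group. All 7 MSC arrays stood above the vehicle mean, yet the groups overlapped, since the highest vehicle array exceeded every MSC array. The means were 11.36 ± 0.16 and 11.21 ± 0.33 (SD, n = 7 each), a difference of 0.16 (SE 0.13, unadjusted p = 0.235 and adjusted p = 0.9999, limma). It was 0.071 without the 4 arrays with other tissues' markers, 0.25 without vehicle replicate 1 and 0.088 without vehicle replicate 2.

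Bcl11b, the zinc finger factor needed for corticospinal axons to reach the cord in mice, had a lowest, median and highest level of 9.05, 9.40 and 9.91 in the MSC group, against 8.57, 8.93 and 9.71 in the vehicle group. The vehicle arrays spread over a wider range and reached both lower and nearly as high. The difference was 0.26 (SE 0.19), which did not pass the test. It was 0.019 without the 4 arrays with other tissues' markers and -0.018 as the mean of its 3 probe sets. Crym, a thyroid hormone binding protein and a marker of layer V neurons, had 9.49, 9.97 and 10.40 in the MSC group, against 9.42, 9.65 and 10.65 in the vehicle group, and a difference of 0.13 (SE 0.18), which was 0.0051 without the 4 arrays, 0.049 without MSC replicate 7 and 0.27 without vehicle replicate 7. Etv1 (ER81), an ETS factor of layer V neurons, had 10.80, 11.09 and 11.50 in the MSC group, against 10.43, 10.99 and 11.29 in the vehicle group. Its difference was 0.12 (SE 0.13), and it was 0.057 without the 4 arrays, 0.047 without MSC replicate 7 and 0.031 without vehicle replicate 2.

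Among the other layer V and VI markers, Sulf2, a heparan sulfate sulfatase, had 11.20, 11.66 and 12.07 in the MSC group, against 10.85, 11.56 and 11.86 in the vehicle group. Its difference of 0.21 (SE 0.16) did not pass the test, and was 0.056 without the 4 arrays with other tissues' markers. Pcp4, a calmodulin-binding peptide of deep layer neurons, was bright in every array, at 15.19, 15.80 and 16.45 in the MSC group, against 15.21, 15.89 and 16.68 in the vehicle group. The groups spanned nearly the same range, and the difference was -0.0035 (SE 0.22), and -0.081 without the 4 arrays.

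Rbp4, a retinol carrier whose promoter is used to mark layer V neurons in mice, had 7.68, 8.15 and 9.57 in the MSC group, against 7.83, 8.07 and 8.58 in the vehicle group. The highest array was MSC replicate 2 and the next vehicle replicate 2, the 2 arrays with the highest meningeal markers. The difference was 0.16 (SE 0.22). It was -0.062 without MSC replicate 2 and 0.079 without the 4 arrays with other tissues' markers, and the part of the meninges was not tested. Rprm, a layer VI marker, had 6.69, 6.81 and 7.02 in the MSC group, against 6.79, 7.01 and 7.16 in the vehicle group, a difference of -0.14 (SE 0.074, unadjusted p = 0.077). Foxp2, a forkhead factor of layer VI, had 7.64, 7.93 and 8.08 in the MSC group, against 7.85, 8.04 and 8.11 in the vehicle group, a difference of -0.12 (SE 0.072). Both lay slightly lower in the MSC group with broad overlap, and neither passed the test. Without the 4 arrays with other tissues' markers the differences were -0.18 (Rprm) and -0.12 (Foxp2).

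The rest of the deep layer markers were Tle4, Ntsr1, Ldb2, Tbr1, Parm1, Sema3e, Syt6, Ccn2, Oprk1, Tox and Lhx2. Their differences ran from -0.065 (Parm1) to 0.15 (Ntsr1, one of the dim pair), each within its own spread. Tle4 was the steadiest, with a pooled SD of 0.10, and Tbr1, the layer VI T-box factor, differed by 0.033 (SE 0.10). Over all 19 deep layer markers, 11 were above and 8 below 0 (MSC minus vehicle), with a median difference of 0.033. None was at an unadjusted p below 0.05.

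Of the upper layer markers, Cartpt, which encodes the CART neuropeptide, was the only marker at an unadjusted p below 0.05. Its log2 level was lowest 6.42, median 6.63 and highest 7.32 in the MSC group, against 6.30, 6.35 and 6.70 in the vehicle group. All 7 MSC arrays stood above the vehicle mean, but the groups overlapped, and MSC replicate 5 was highest. The means were 6.71 ± 0.30 and 6.41 ± 0.14 (SD, n = 7 each). The difference was 0.31 (SE 0.12, 95% interval 0.059 to 0.56, unadjusted p = 0.0186 and adjusted p = 0.9999, limma). Leaving out each array gave 0.21 (without MSC replicate 5) to 0.36 (without vehicle replicate 2), and it was 0.41 without the 4 arrays with other tissues' markers.

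Rorb, a nuclear receptor of layer IV, had the largest spread of the 34 markers. Its log2 level was lowest 10.81, median 11.32 and highest 12.59 in the MSC group, against 10.80, 11.87 and 12.91 in the vehicle group. The lowest and highest of the 14 arrays were 4.30-fold apart, both of them vehicle arrays. The pooled SD of 0.68 was above that of 99.7% of the 23446 probe sets with 1 gene symbol. The difference of -0.40 (SE 0.32) did not pass the test. It was -0.093 without the 4 arrays with other tissues' markers and -0.22 without vehicle replicate 2.

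Lamp5, a membrane protein of upper layer neurons and some interneurons, had 13.61, 14.45 and 15.24 in the MSC group, against 14.04, 14.87 and 15.23 in the vehicle group, a difference of -0.19 (SE 0.27), which was 0.10 without the 4 arrays. Cux2, the upper layer homeodomain factor, had 8.38, 8.84 and 9.20 in the MSC group, against 8.41, 9.005 and 9.12 in the vehicle group, a difference of -0.087 (SE 0.14), which was 0.049 without the 4 arrays. For Cux2 the groups covered nearly the same range, while for Lamp5 the MSC group also reached lower.

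The remaining upper layer markers, Cux1, Rasgrf2, Otof, Calb1, Mdga1, Nectin3, Lmo4, Plcxd2, Pou3f2 and Pou3f3, differed by -0.15 (Cux1) to 0.10 (Mdga1), each within its spread. Rasgrf2, an exchange factor of layer II and III neurons, stood at 12.19 in MSC replicate 5 against at most 11.70 elsewhere. Over the 15 upper layer markers, 4 were above and 11 below 0 (MSC minus vehicle), with a median of -0.035. Without the 4 arrays with other tissues' markers the upper median was 0.055, of the opposite sign, and the deep median 0.0051. With Fezf2 counted as a deep layer marker instead, 3 of 14 upper markers were higher and 11 lower (median -0.036), and 12 of 20 deep markers were higher and 8 lower (median 0.038).

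**Figure D2:**
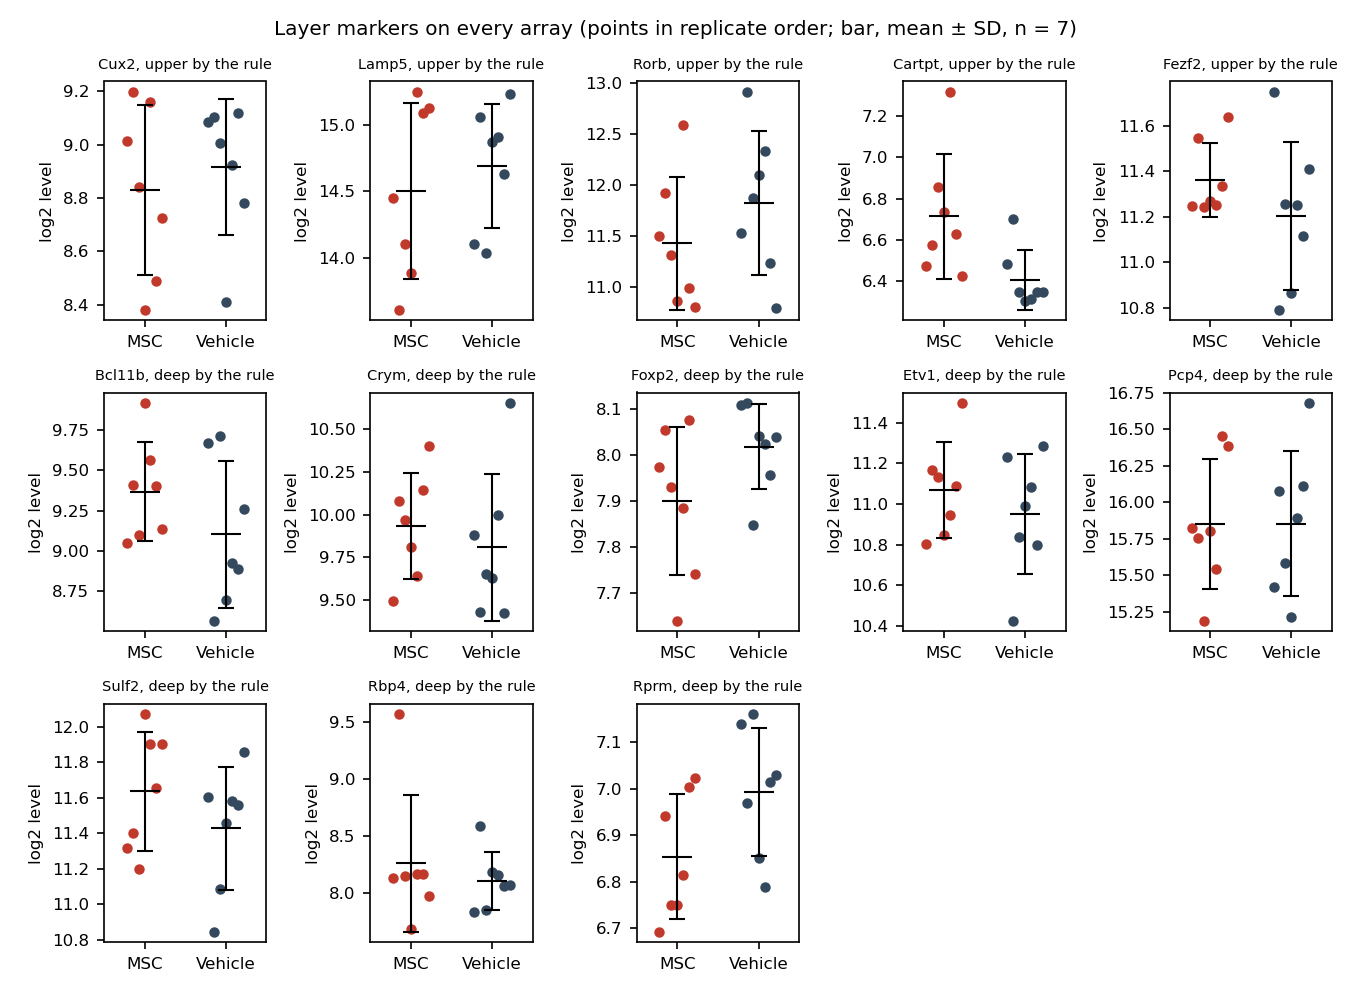
Log2 level of the 13 markers whose values are given in full, one point per array in replicate order, with the mean and SD (n = 7) as bars; MSC arrays on the left of each panel and vehicle arrays on the right. Groups overlap in every panel, and the Cartpt arrays of the MSC group all stand above the vehicle mean.

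A deep minus upper score summarised the balance of layers in each array: each marker was centred on its mean over the 14 arrays, and the mean over upper markers was subtracted from the mean over deep markers. The score was meant as a measure of dissection depth; whether it reads depth was not tested, and no test was made between the groups. It averaged 0.037 ± 0.20 in the MSC group and -0.037 ± 0.18 in the vehicle group (SD, n = 7 each), a difference of 0.074 (SE 0.10). The difference was 0.093 with Fezf2 counted as a deep layer marker, and 0.0975 with Lhx2 also counted as an upper one. Between single arrays the score ranged more widely than between the groups. It was lowest at -0.39 in MSC replicate 5 and -0.37 in vehicle replicate 2, and highest at 0.22 in MSC replicate 4 and 0.23 in vehicle replicate 7.

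These extremes had different make-up. MSC replicate 5 had the highest upper mean (0.40) with a deep mean near 0, while vehicle replicate 2 had the lowest deep mean (-0.19) beside an upper mean of 0.18. MSC replicate 4 had the lowest upper mean (-0.29), and vehicle replicate 7 the highest deep mean (0.19). MSC replicate 4 and vehicle replicate 2 are the arrays with the high choroid plexus markers. The difference in the score was 0.14 without MSC replicate 5 and 0.018 without vehicle replicate 2, so single arrays decided its size, and it was -0.088 without the 4 arrays with other tissues' markers.

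**Figure D3:**
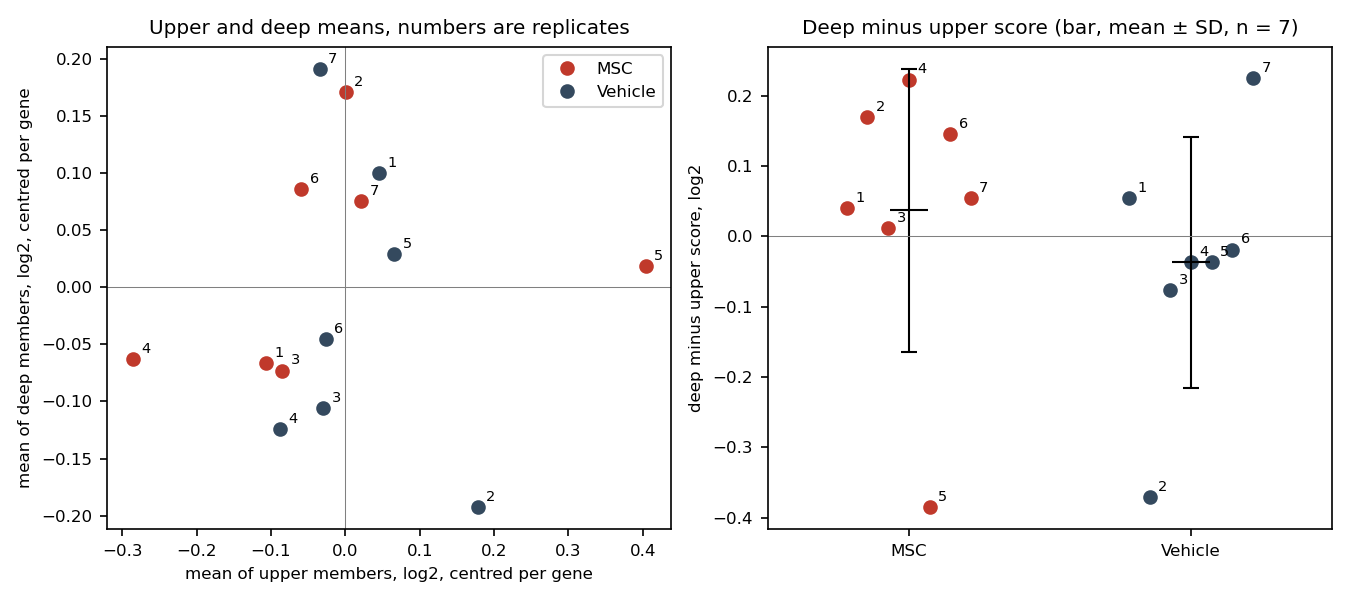
Left, mean of deep against mean of upper layer markers per array, log2 after centring each gene; right, the deep minus upper score in the MSC group (left) and the vehicle group (right), with mean and SD (n = 7) as bars and numbers giving replicates. MSC replicate 5 and vehicle replicate 2 have the lowest scores of their groups.

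The map of all arrays shows the level of each marker, and how far the markers varied together was described by slopes. Every probe set was fitted on Rorb and then on Fezf2, with the group as a term (limma, 14 arrays). Both were picked after their values were seen, and these are descriptions across arrays that share tissue and processing. No slope on either gene passed the adjusted threshold (0% of probe sets called in each fit), so what follows is at an unadjusted p below 0.05.

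**Figure D4:**
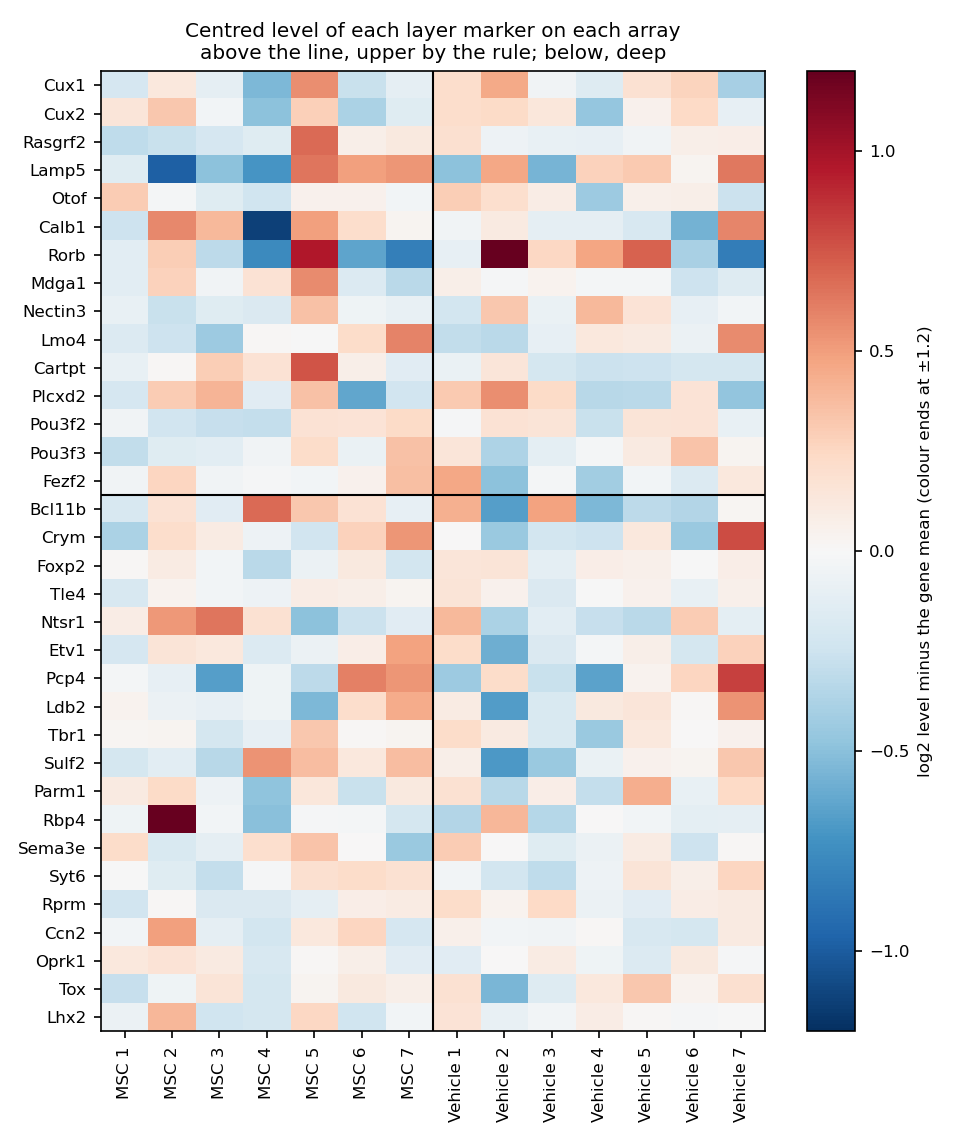
Log2 level of each of the 34 markers minus its mean over the arrays, by array, with the 7 MSC arrays left of the line and the 7 vehicle arrays right of it, upper layer markers above the line and deep below; colours end at 1.2 either way. Rorb and Lamp5 vary most among upper markers, and vehicle replicate 2 is low in Fezf2, Etv1, Ldb2, Bcl11b and Sulf2.

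On Fezf2, 7 of 33 markers had an unadjusted p below 0.05, against 10.3% of all probe sets and 11.7% of all genes. Positive slopes at this level were 6 deep layer markers (3.46% of all probe sets were positive) and the negative one was an upper layer marker (6.85% were negative). Etv1 had a slope of 0.79 per log2 unit of Fezf2 (SE 0.19, unadjusted p = 0.00095, adjusted p = 0.316), ranking 85 of 22092 genes. Crym (0.88), Bcl11b (0.85), Ldb2 (0.72), Parm1 (0.65) and Rprm (0.31) also had positive slopes, while that of Nectin3, an adhesion protein, was -0.56. Of all 19 deep markers 15 had a positive slope, with a median of 0.31, against 7 of 14 upper markers, with a median of 0.0069. General cortical excitatory genes were positive in 7 of 8, also with a median of 0.31, so positive slopes of this size were not particular to deep markers. Of these 8 genes, 0 had an unadjusted p below 0.05, against 6 of the 19 deep markers. The share of positive slopes over all genes was not counted. All of these are slopes on Fezf2, a gene listed as an upper layer marker. The count was 5 of 33 with a term for replicates 6 and 7 (10.8% of all probe sets) and 6 within replicates 1 to 5 (10.3%). It was 5 without the 4 arrays that carry other tissues' markers (7.27%). Positive deep markers were 4, 4 and 3 of these. Without the 4 arrays Rbp4, also deep, had a negative slope (-0.38), and the unadjusted p was 0.070 for Crym, 0.071 for Parm1 and 0.216 for Ldb2. Leaving out each array gave counts of 5 to 9. With vehicle replicates 1 and 2 left out, the arrays farthest from the median Fezf2 level, the count was 5 (5.3%). Astrocyte genes moved with Fezf2 as well: 5 of 8 had positive slopes at an unadjusted p below 0.05, Gfap and Aqp4 among them. Interneuron genes were positive in 7 of 8 (Gad1 and Sst at an unadjusted p below 0.05), choroid plexus genes negative in 8 of 8 (median slope -1.68, Folr1 at that level) and meningeal genes negative in 7 of 8. The part of these cells in the result was not tested. The genes nearest to Fezf2 by p were Mchr1 (slope 1.18, adjusted p = 0.221) and Grp (1.28).

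On Rorb, 7 of 33 markers had an unadjusted p below 0.05, against 5.36% of all probe sets and 5.74% of all genes. Positive were 5 upper markers (2.34% of all probe sets) and negative 2 deep markers (3.02%). Cux1, the upper layer homeodomain factor, had a slope of 0.35 (SE 0.088, unadjusted p = 0.00138, adjusted p = 0.625), ranking 59 of 22092. Plcxd2 (0.30), Mdga1 (0.22), Nectin3 (0.21) and Cartpt (0.20) were positive too. Ldb2, a LIM-domain-binding cofactor that marks layer V, had a slope of -0.40 (SE 0.084, unadjusted p = 2.69e-04, adjusted p = 0.421), ranking 18, and Crym one of -0.30. Of 14 upper markers 11 had a positive slope, and of 19 deep markers 10 had a negative one.

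This count varied with the arrays and settings used. Leaving out each array gave counts from 4 (without MSC replicate 7, 5.22% of all probe sets) to 10 (for example without MSC replicate 3, 5.85%). It was 4 of 33 with MSC replicate 5 and vehicle replicate 2, the arrays farthest from the median Rorb level, both left out (5.12%). With only 1 of them left out it was 8 (MSC replicate 5, 5.16%) and 6 (vehicle replicate 2, 6.15%). It was 11 after quantile normalization (5.37%), and 5 without the 4 arrays with other tissues' markers (4.58%). With a term for replicates 6 and 7 it was 6 (4.5%), but not the same markers: Cux1, Nectin3 and Ldb2 stood at this level, while the unadjusted p was 0.324 for Plcxd2, 0.213 for Mdga1, 0.0776 for Cartpt and 0.279 for Crym. Meningeal genes had positive slopes on Rorb in 8 of 8 cases, 6 of them at an unadjusted p below 0.05, and choroid plexus genes in 8 of 8; their part in the result was not tested. Serpini1 (slope -0.40, adjusted p = 0.0903) and Cdh12 (0.64) were the genes nearest to Rorb.

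**Figure D5:**
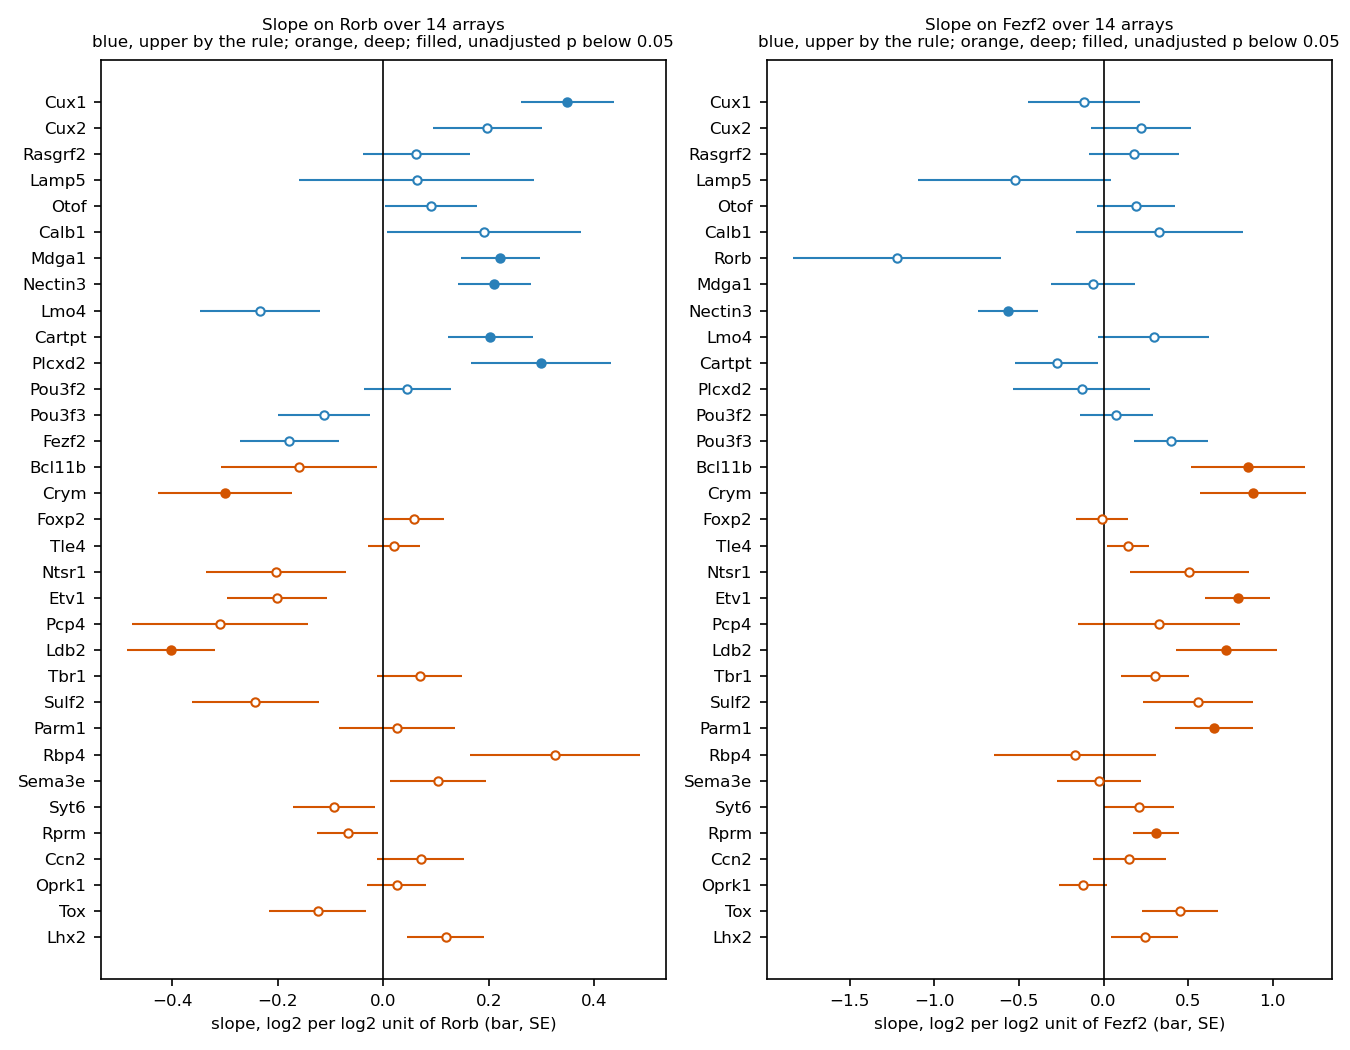
Slope of each of the other markers on the log2 level of Rorb (left) and of Fezf2 (right) over 14 arrays, with SE as bars; blue for upper and orange for deep layer markers, filled where the unadjusted p is below 0.05. Most deep markers lie right of 0 for Fezf2, and most upper markers right of 0 for Rorb.

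Replicates 6 and 7 of each group had lower signals than replicates 1 to 5 for the spike-in controls dap and phe. Other control probe sets are not described here. The dap control was 7.45 to 8.12 in replicates 6 and 7 and 8.35 to 9.92 in the others, and phe was 5.51 to 6.25 and 6.35 to 7.95. The labels give no batch, and the split was made after the data were seen. Between these sets, which are balanced over MSC and vehicle, limma called 0 probe sets (0%), but 9 of 34 markers stood at an unadjusted p below 0.05, against 7.84% of all probe sets and 8.5% of all genes. Pcp4 had the smallest p, with 16.11 to 16.68 in replicates 6 and 7 and 15.19 to 16.08 in replicates 1 to 5, a difference of 0.78 (unadjusted p = 1.91e-04, adjusted p = 0.194). Lmo4 (0.46), a LIM-only cofactor, Lamp5 (0.59), Ldb2 (0.42), Crym (0.40) and Syt6 (0.25) were higher too. Lower were Rorb (-0.93, SE 0.27), Plcxd2 (-0.41) and Mdga1 (-0.31). Leaving out each array gave counts from 5 (without MSC replicate 7, 7.95% of all probe sets) to 10 (without vehicle replicate 6, 6.58%). The count was 6 without the 4 arrays with other tissues' markers (4.71%), 9 after quantile normalization (7.32%) and 8 after median centring (7.48%). Between MSC and vehicle, 0 markers were called within replicates 1 to 5 alone.

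Other layer genes, outside the 34, had no call either. Of 11 measured upper or callosal genes, 7 were above and 4 below 0 (MSC minus vehicle), with a median of 0.023, and 0 had an unadjusted p below 0.05. Kcnh5 (-0.47, SE 0.24, unadjusted p = 0.065) and Inhba (0.10, dim) had the smallest p, and Kcnh5 and Lpl the largest spread. Of 21 measured deep layer genes, 14 were higher and 7 lower, with a median of 0.019, and 0 had an unadjusted p below 0.05. Slco2a1 (0.24) and Crim1 (0.17) had the smallest p, and Tshz2 (pooled SD 1.02) and Nr4a2 (0.83) varied most.

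Markers of other cell types were set beside the layer markers. Endothelial genes were lower in the MSC group for 8 of 8, with a median of -0.19, among them Ly6c (-0.33) and Cldn5 (-0.30). Hippocampal genes were higher for 7 of 7, among them Wfs1 (0.74), also known in layer II neurons, and Bok (0.11). Of the others, Dsp, Lct and Spink8 were dim and differed by only 0.017 to 0.025. Astrocyte genes were higher for 8 of 8 (Aqp4 0.22, Aldh1l1 0.075), meningeal genes for 8 of 8 (Slc22a6 0.15, Col1a2 0.23), striatal genes for 10 of 13 (Pde10a 0.58, Drd2 0.32) and cortical excitatory genes for 7 of 8 (Slc17a7 0.17, Slc30a3 0.11). Interneuron genes were higher for 6 of 8 (Pvalb -0.26, Gad2 0.19), thalamic genes for 3 of 8 (Gbx2 -0.084, Cdh23 0.029), choroid plexus genes for 4 of 8 (Kcnj13 0.041, Otx2 0.11), oligodendrocyte genes for 4 of 11 (Ugt8 -0.16, Mbp -0.12) and microglial genes for 3 of 7 (P2ry12 -0.28, Itgam 0.17). The named Ly6c, Gbx2, Cdh23, Kcnj13 and Otx2 averaged below the lowest array median, so their signal was dim. Over all 22093 genes 47.6% were higher in the MSC group. Genes of a list can move together between arrays, so these counts are not counts of separate observations. The meningeal list mean was highest in MSC replicate 2 and vehicle replicate 2. It differed by 0.13 between the groups (SD 0.48 in MSC and 0.44 in vehicle). None of the genes in these lists passed the adjusted threshold. Ly6c, Cldn5, Wfs1, Pde10a, Pvalb and P2ry12 had an unadjusted p below 0.05 (limma). They were 2 of 8 endothelial genes and 1 each of 7 hippocampal, 13 striatal, 8 interneuron and 7 microglial genes. The other cell type lists had 0, and 2.77% of all genes stood at this level. The lists were chosen with earlier results known.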

How the data were processed

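Values are log2 levels that the authors computed by RMA with Affymetrix Expression Console, according to the submitters' processing notes and as deposited; no version or genome build is given in the sources used here. RNA (100 ng per array) was labelled with biotin per the labels' protocols. The table held 70580 probe sets, of which 1738 controls were left out; the 68842 others were tested, and 23446 had 1 gene symbol in the platform annotation (22093 genes). Values were used as deposited. MSC and vehicle (7 arrays each) were compared in R 4.3.3 with limma 3.58.1, using lmFit and eBayes without covariates; p-values were adjusted by Benjamini-Hochberg over the whole table, and 0.05 was the threshold. The fit was checked on simulated data. The number of arrays limits the precision.

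The members and lists were chosen with earlier results of these data known. Values are given in full for Fezf2, Bcl11b, Crym, Cux2, Rorb and Etv1, for the 2 upper and 4 deep markers with the smallest p, and for the 2 upper and 2 deep with the largest pooled SD. Of each other list, the 2 members with the smallest p are named (of other layer genes also the 2 with the largest SD). The slope fits, the split of replicates 6 and 7, the setting without 4 arrays, 2 of the motifs and the choice of the Cux2 window came after the data or sequences were seen.

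Same-numbered MSC and vehicle arrays correlated in their deviations from the group means at -0.21 to 0.33 (median 0.0014). For arrays of different number the median was -0.038. Of the 7 MSC arrays, 2 were best matched by the vehicle array of their own number. Whether the numbers pair the samples was not tested. No array pair held identical values. Alternatives were quantile normalization, median centring, a filter on dim probe sets, the mean of a gene's probe sets, trend and robust eBayes, other layer assignments and scalings of the score, a block for replicate number, replicates 6 and 7 apart, another label for MSC replicate 7 and leaving out each array.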

Additional observations from a re-analysis of the deposited data

Results flagged for a closer look

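Of 74 sets of 7 values (each marker and the 3 scores in each group), 4 held an array far from the others by Dixon's test, which chance alone gives in about 1 in 20. In the MSC group, Rasgrf2 was 12.19 in replicate 5, with the nearest array at 11.63, and Nectin3 was 9.74 in the same array, with the nearest at 9.34. Rbp4 was 9.57 in MSC replicate 2, with the nearest array at 8.17. The deep minus upper score was -0.39 in MSC replicate 5, with the nearest at 0.012.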

How the results depend on the processing

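No marker passed the adjusted threshold under any of 11 alternatives or with any array left out. The count of probe sets past it was 0 except in replicates 6 and 7 alone, where it was 1; the cause was not tested. Uncalled differences changed sign: Pcp4 to 0.017 (quantile normalization), 0.012 (median centring) and 0.025 (replicates 6 and 7 alone); Crym to -0.026 and Etv1 to -0.021 with MSC replicate 7 counted as vehicle; Cux2 to 0.014 in replicates 1 to 5; Lamp5 to 0.17 and Rbp4 to -0.0012 in replicates 6 and 7; Bcl11b to -0.018 as the mean of its probe sets. Without the 4 arrays with other tissues' markers, chosen after seeing the data, Cux2 was 0.049 and Lamp5 0.10. Leaving out each array, Pcp4 ran from -0.11 to 0.13 and Rbp4 from -0.062 to 0.25. The upper median ran from -0.097 to -0.0053, the deep median from -0.0055 (without vehicle replicate 3) to 0.073 and the score from 0.018 to 0.14. Other settings turned the signs of these summaries too: the upper median was 0.055 without the 4 arrays and 0.015 in replicates 6 and 7, the deep median -0.021 with MSC replicate 7 as vehicle and -0.0012 in replicates 6 and 7, and the score -0.088 without the 4 arrays and -0.0038 in replicates 6 and 7. With the replicate number as a block, 2 markers instead of 1 had an unadjusted p below 0.05, 0 were called and the score difference stayed 0.074. With 7 arrays a group, the widest interval (Rorb) ran from -1.08 to 0.28; values in that range are compatible with these arrays.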
